A study of Homo sapiens with 6 samples.

Results

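The 10 genes studied here belong to cyclin-dependent kinase (CDK) control in A375 melanoma cells: the inhibitors CDKN1A, CDKN1B, CDKN1C, CDKN2A, CDKN2B, CDKN2C and CDKN2D, the phosphatase CDKN3, and SKP2 and CKS1B, which mark the p27 protein made from CDKN1B for destruction. They were chosen by name, as probe sets that carry 1 gene symbol, with the probe set of highest mean kept for each gene. Of the 10 genes, 9 had such a probe set, out of 18417 genes tested, and CDKN2C is not analysed here. A375, an established line of human melanoma cells, carries the BRAF V600E allele, which keeps the ERK kinase pathway active. In one group of 3 arrays the cells had received vehicle (0.1% DMSO) for 24 h, and in the other group of 3 arrays 10 µM vemurafenib, an inhibitor of the mutant BRAF kinase, for 24 h. Both groups were grown in the same serum-containing medium. Per the design text the 3 replicates of a group came from separate cell stocks on separate days, so the spread between arrays is a spread between cultures of this single line. That text also pairs a vehicle with a vemurafenib dish within each stock, but the sample labels give the stock of 1 array only, so the stated pairing was not used. Levels are log2 values of single-colour Affymetrix arrays, and a change is the vemurafenib mean minus the vehicle mean on that scale.

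CDKs, bound to cyclins, drive a cell from G1 into S phase and on through mitosis. The CIP/KIP inhibitors p21 (CDKN1A), p27 (CDKN1B) and p57 (CDKN1C) bind whole cyclin-CDK complexes, whereas the INK4 inhibitors p16 (CDKN2A), p15 (CDKN2B), p18 (CDKN2C) and p19 (CDKN2D) bind CDK4 and CDK6 and keep D-type cyclins off them. The amount of p27 is set to a large part by destruction of the protein: SKP2 is the substrate receptor of a ubiquitin ligase, and the small protein made from CKS1B helps it to grip phosphorylated p27. In BRAF-mutant melanoma cells the ERK pathway is known to sustain cyclin D1 and to hold p27 low. The arrays measured RNA only, so the levels of these proteins were not measured.

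With vemurafenib, 2 of the 9 measured genes rose (CDKN1A and CDKN1B), 4 fell (CDKN2D, CDKN3, SKP2 and CKS1B) and 3 did not pass the test (CDKN1C, CDKN2A and CDKN2B). The test was limma with Benjamini-Hochberg adjustment over all 18417 genes and a threshold of 0.05. In this comparison 45.5% of all genes passed, 23.2% higher and 22.2% lower with vemurafenib, so 6 of 9 is read against a background in which calls are common. The vemurafenib arrays lay wholly above the vehicle arrays for 2 of the 9 genes (26.9% of all genes) and wholly below them for 4 (28.5% of all genes), together 6 of 9 against 55.4%. The split of all calls was 4281 higher and 4090 lower, and after median centring of the arrays it was 3682 higher and 5630 lower. The median change of the 9 genes was -0.17, and that of all genes was -0.05. The 9 changes ran from -0.86 to 0.50 on the log2 scale, and 1429 of the 18417 genes moved by at least as much as the largest of them. In RNA from a whole culture, fewer cells expressing a gene and less of its RNA per cell cannot be told apart.

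**Figure D1:**
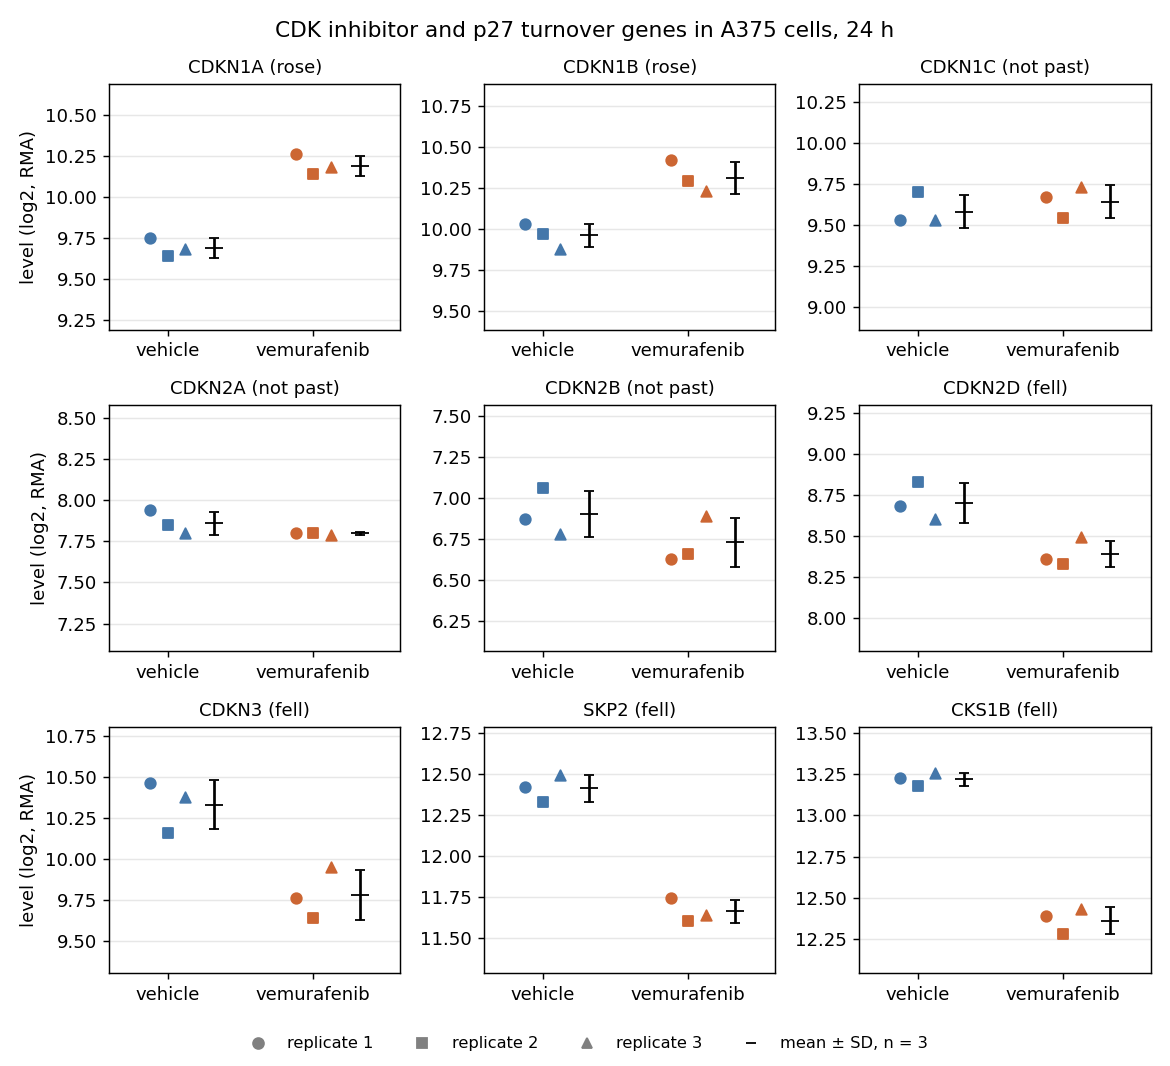
Level of each of the 9 measured genes on each array (vertical axis, log2, each panel spanning the same height) in the vehicle and vemurafenib groups, with symbols for replicates and a bar for the mean ± SD (n = 3). The groups lie apart for CDKN1A, CDKN1B, CDKN2D, CDKN3, SKP2 and CKS1B and overlap for CDKN1C, CDKN2A and CDKN2B.

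The CIP/KIP genes came first. CDKN1A, whose product p21 is also the best-known arrest gene under p53, read 9.75, 9.64 and 9.68 on the vehicle arrays and 10.26, 10.14 and 10.18 on the vemurafenib arrays. All vemurafenib arrays lay above all vehicle arrays, with a gap of 0.39 between the groups. The means were 9.69 ± 0.06 and 10.19 ± 0.06 (SD, n = 3), a change of 0.50 (SE 0.07) or 1.42-fold, with a limma adjusted p of 0.000139.

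CDKN1B, the p27 gene, read 10.03, 9.97 and 9.88 with vehicle and 10.42, 10.29 and 10.23 with vemurafenib. The groups again lay apart, by 0.20. The means were 9.96 ± 0.07 and 10.31 ± 0.10 (SD, n = 3), which is 1.28-fold higher (change 0.35, SE 0.08, limma adjusted p 0.00308).

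CDKN1C, the p57 gene, read 9.53, 9.70 and 9.53 with vehicle and 9.67, 9.54 and 9.73 with vemurafenib. Here the groups overlapped, and the change of 0.06 had a 95% interval of -0.12 to 0.24 (limma adjusted p 0.562). Within each array the CDKN1A level minus the CDKN1C level was -0.06 to 0.22 with vehicle and 0.45 to 0.60 with vemurafenib, so the changes of these genes differed by 0.44. The exact permutation test of that difference (2-sided) gave p = 0.1, the smallest that 3 against 3 arrays allow, and 0.112 after Benjamini-Hochberg adjustment over the 9 pairs compared. The same p values came out for CDKN1A against CDKN1B (difference of changes 0.15) and CDKN1B against CDKN1C (0.29). These pairs were picked after the values were seen, and no pair could pass 0.05 in a design of this size.

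Of the 3 measured INK4 genes, 1 fell and none rose in limma, where 22.2% and 23.2% of all genes did. At an unadjusted p under 0.05, 0 rose. CDKN2D, the p19 gene, read 8.68, 8.83 and 8.60 with vehicle and 8.36, 8.33 and 8.49 with vemurafenib. The groups lay apart by 0.11, the narrowest gap among the 6 genes that passed. The means were 8.70 ± 0.12 and 8.39 ± 0.08 (SD, n = 3), which is 1.24-fold lower (change -0.31, SE 0.08, limma adjusted p 0.00923).

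CDKN2A read 7.94, 7.85 and 7.80 with vehicle and 7.80, 7.80 and 7.79 with vemurafenib. The vehicle and vemurafenib arrays overlapped, and the change of -0.07 had a 95% interval of -0.22 to 0.09 (limma adjusted p 0.471). The probe set is annotated with transcripts of both p16 and ARF, the other protein of this locus, so it does not tell them apart. The neighbouring antisense transcript CDKN2A-AS1, chosen after its values were seen, had means of 6.53 ± 0.06 with vehicle and 6.40 ± 0.06 with vemurafenib (SD, n = 3), with an adjusted p of 0.163 in limma. Both means lay among the dimmest 25% of genes (up to 6.87), so this transcript was not shown to be above background.

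CDKN2B, the p15 gene, read 6.87, 7.06 and 6.78 with vehicle and 6.63, 6.66 and 6.89 with vemurafenib. The third vemurafenib array lay inside the vehicle range. The change was -0.17 with a 95% interval of -0.39 to 0.04 (limma adjusted p 0.164), and without vemurafenib replicate 3 it was -0.26 with an adjusted p of 0.0471. Its mean over all arrays, 6.81, lay among the dimmest 25% of genes (up to 6.87) and close to 6.75, the level that the brightest 10% of 341 genes of smell receptors, hardly used by melanoma cells, exceeded. Whether CDKN2B was above background was therefore not shown. Within arrays, the change of CDKN2D differed from that of CDKN2A by -0.25 and from that of CDKN2B by -0.14, each with an exact permutation p of 0.1, the smallest possible (0.112 adjusted over the 9 pairs).

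CDKN3 encodes a phosphatase that removes the activating phosphate from CDKs, and its RNA is known to be most abundant in dividing cells. It read 10.46, 10.16 and 10.38 with vehicle and 9.76, 9.64 and 9.95 with vemurafenib. The highest vemurafenib array stayed 0.21 below the lowest vehicle array. The means were 10.33 ± 0.15 and 9.78 ± 0.15 (SD, n = 3), which is 1.46-fold lower (change -0.55, SE 0.10, limma adjusted p 0.000834).

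Both genes of p27 turnover fell, with the largest changes among the 9 measured genes. SKP2 read 12.42, 12.33 and 12.49 with vehicle and 11.74, 11.60 and 11.64 with vemurafenib. The gap between the groups was 0.59, several times the SD of either. The means were 12.41 ± 0.08 and 11.66 ± 0.07 (SD, n = 3), which is 1.69-fold lower (change -0.75, SE 0.07, limma adjusted p 8.53e-06).

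CKS1B had 3 probe sets with this symbol alone. The brightest, used for the gene, read 13.23, 13.18 and 13.26 with vehicle and 12.39, 12.28 and 12.43 with vemurafenib. The groups lay 0.76 apart, the widest gap among the measured genes. The means were 13.22 ± 0.04 and 12.36 ± 0.08 (SD, n = 3), which is 1.81-fold lower (change -0.86, SE 0.07, limma adjusted p 2.19e-06).

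The other CKS1B probe sets fell too, but not all by the same amount. Probe set 7926896, annotated with the same transcripts as the brightest one, went from 13.09 ± 0.05 to 12.22 ± 0.08 (SD, n = 3), a change of -0.87. Probe set 7905826, which lists 4 of the 11 transcript records of the others, read 10.91, 10.88 and 10.82 with vehicle and 9.59, 9.26 and 9.60 with vemurafenib. Its change of -1.39 (95% interval -1.60 to -1.18, 2.62-fold lower, limma adjusted p 6.89e-07) lay outside the interval of the brightest set, -1.02 to -0.70. Within arrays the changes of these probe sets differed by -0.53, with an exact permutation p of 0.1, the smallest possible (0.112 adjusted over the 9 pairs). RefSeq lists pseudogene copies of CKS1B, and the sources used here do not say which probe set reads CKS1B itself and which reads copies. The size of the fall is therefore uncertain, while all 3 probe sets went down. The gap, rank, closest profiles and pair differences given for CKS1B are those of the brightest set, which may not be the one that reads the gene. By number that set, 8112327, lies between those of SKP2 (8104912, chromosome 5) and CDKN1A (8119088, chromosome 6). RefSeq places CKS1B on chromosome 1. Whether probe set numbers follow genome position was not tested.

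Set against the p27 gene within the same arrays, the CDKN1B level minus the SKP2 level was -2.60 to -2.37 with vehicle and -1.41 to -1.32 with vemurafenib. The changes of these genes thus differed by 1.11 on the log2 scale, the widest of the 9 pair differences. The exact permutation p was 0.1, the smallest possible (0.112 adjusted). The brightest CKS1B set and SKP2 differed from each other by -0.11 in their change (exact permutation p 0.2, adjusted 0.2). Their within-array differences of 0.77 to 0.85 and 0.65 to 0.79 overlapped. Probe set 7905826 of CKS1B fell by more (-1.39, against -0.75 for SKP2), and its difference from SKP2 was not tested.

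**Figure D2:**
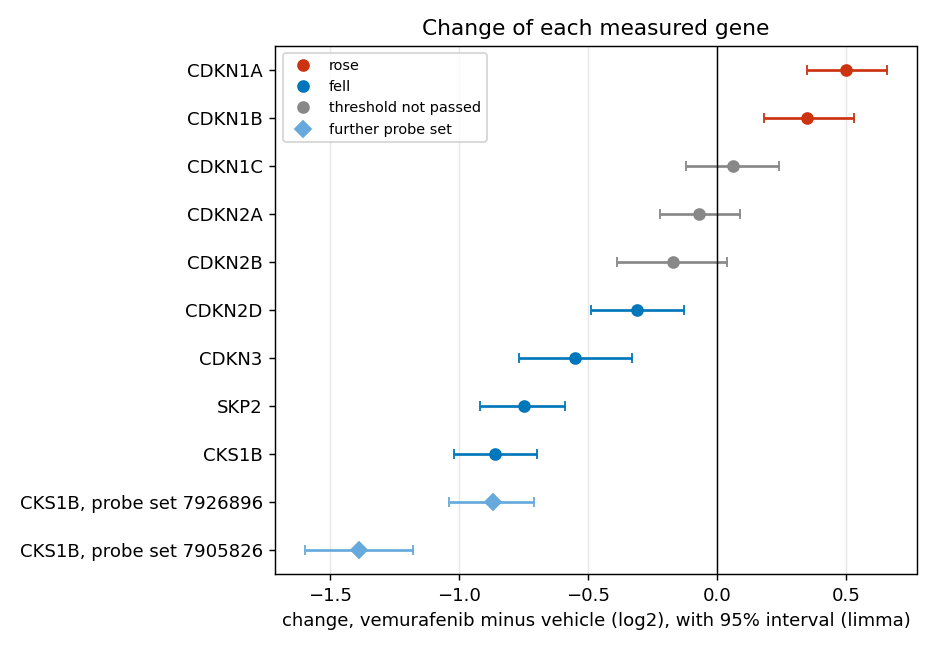
Change of each measured gene (horizontal axis, vemurafenib minus vehicle, log2) with its 95% interval from limma; diamonds show the further CKS1B probe sets. The intervals of CDKN1A and CDKN1B lie above 0, those of CDKN2D, CDKN3, SKP2 and CKS1B below 0, and probe set 7905826 of CKS1B sits lowest at -1.39.

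Calls of the 6 genes that passed were kept under each of the alternative settings tried, with changes of 0.44 to 0.54 for CDKN1A, 0.29 to 0.40 for CDKN1B, -0.37 to -0.25 for CDKN2D, -0.64 to -0.48 for CDKN3, -0.81 to -0.68 for SKP2 and -1.39 (the third probe set) to -0.81 for CKS1B. By size of change, CKS1B was 646th and SKP2 836th from the lowest of the 18417 genes, and CDKN1A was 2001st from the highest. The 5 genes whose profile over the 6 arrays lay closest to that of CKS1B, after each gene was centred on its own mean, were RRP12, MRPL17, EZH2, FKBP4 and RBM14, at Euclidean distances of 0.06 to 0.08. SKP2 lay at 0.17 and CDKN3 at 0.44 from CKS1B, where the median distance of all genes was 1.03. For CDKN1A the closest profiles were those of DNAH2, DHRS11, TSC2, PIGQ and ARHGEF3 at 0.05 to 0.06, against 0.22 for CDKN1B and a median of 0.74. With 2 groups of 3 arrays these distances mostly follow the size of the change.

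The promoters of the 6 genes that moved were read next, because late cell cycle genes often carry CCAAT boxes, bound by the activator NF-Y, with a CHR element, bound by the DREAM repressor in resting cells, whereas the CDKN1A promoter is known for its GC boxes. The windows hold the 250 bases before the RefSeq transcription start (GRCh38.p14), and 9 of the 10 genes had an entry in that table. The windows of 5 genes, all on the plus strand, are printed here, and that of CDKN2D, the smallest of the falls, is given by its counts. The stretches are CDKN1A at chr6:36678464-36678713, CDKN1B at chr12:12717118-12717367, CDKN3 at chr14:54396757-54397006, SKP2 at chr5:36151861-36152110 and CKS1B at chr1:154974431-154974680. Capitals mark matches on either strand to a CCAAT box (CCAAT), a CHR element (TTTGAA or TTCGAA), a GC box (GGGCGG), an E2F site (TTTCGCGC, TTTGGCGC, TTTCCCGC or TTTGCCGC), a FOXO site (TGTTTAC) or an E-box (CACGTG).
CDKN1A: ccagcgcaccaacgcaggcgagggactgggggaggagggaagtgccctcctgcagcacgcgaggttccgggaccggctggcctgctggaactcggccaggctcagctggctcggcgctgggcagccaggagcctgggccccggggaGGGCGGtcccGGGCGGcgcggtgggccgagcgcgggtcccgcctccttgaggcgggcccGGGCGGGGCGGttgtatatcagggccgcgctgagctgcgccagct
CDKN1B: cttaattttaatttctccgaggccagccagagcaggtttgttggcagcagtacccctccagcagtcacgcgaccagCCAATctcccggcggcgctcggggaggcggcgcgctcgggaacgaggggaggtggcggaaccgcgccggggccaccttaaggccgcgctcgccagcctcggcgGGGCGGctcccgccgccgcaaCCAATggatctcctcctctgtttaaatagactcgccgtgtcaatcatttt
CDKN3: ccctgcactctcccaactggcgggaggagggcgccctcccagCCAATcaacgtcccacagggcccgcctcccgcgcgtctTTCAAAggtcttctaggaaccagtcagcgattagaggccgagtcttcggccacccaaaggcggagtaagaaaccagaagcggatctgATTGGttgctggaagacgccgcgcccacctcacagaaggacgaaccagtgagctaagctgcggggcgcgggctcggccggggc
SKP2: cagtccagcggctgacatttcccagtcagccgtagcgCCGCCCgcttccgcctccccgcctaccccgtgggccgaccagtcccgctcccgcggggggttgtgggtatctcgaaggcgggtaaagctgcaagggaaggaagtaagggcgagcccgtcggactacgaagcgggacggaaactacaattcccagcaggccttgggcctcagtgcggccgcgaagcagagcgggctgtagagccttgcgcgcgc
CKS1B: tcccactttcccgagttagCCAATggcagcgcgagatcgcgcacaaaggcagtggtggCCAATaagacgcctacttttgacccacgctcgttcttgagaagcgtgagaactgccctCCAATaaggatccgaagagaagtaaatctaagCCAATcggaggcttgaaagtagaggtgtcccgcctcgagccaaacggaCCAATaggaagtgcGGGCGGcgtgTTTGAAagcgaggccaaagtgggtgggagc

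The CKS1B window held 5 CCAAT boxes, all on the plus strand, and a TTTGAA match from base -30 to base -25. A count of at least 5 CCAAT boxes was found in 0.442% of the 14239 windows of tested genes. The CDKN3 window held 2 CCAAT boxes, and a CHR match on the minus strand from base -170 to base -165. At least 2 CCAAT boxes were present in 11.5% of windows. A CCAAT box together with a CHR match was present in 4.57% of windows. The SKP2 window held neither, and its only match was 1 GC box. The CDKN2D window held 1 CCAAT box, 2 GC boxes and no CHR match, so of the 4 genes that fell 2 had a CHR match and 2 had none.

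Among the genes that rose, the CDKN1A window held 4 GC boxes, of which the 2 nearest the start overlap by 1 base, and at least 4 were found in 11.6% of windows. The CDKN1B window held 2 CCAAT boxes and 1 GC box. Over all windows, 34.4% held a CCAAT box, 57.5% a GC box, 11.8% a CHR match, 3.75% an E2F match, 2.07% a FOXO match and 7.86% an E-box. None of the 5 windows printed held the E2F, FOXO or E-box letters searched here, which says nothing about binding of those factors. A match is a run of letters and was not tested as a site.

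**Figure D3:**
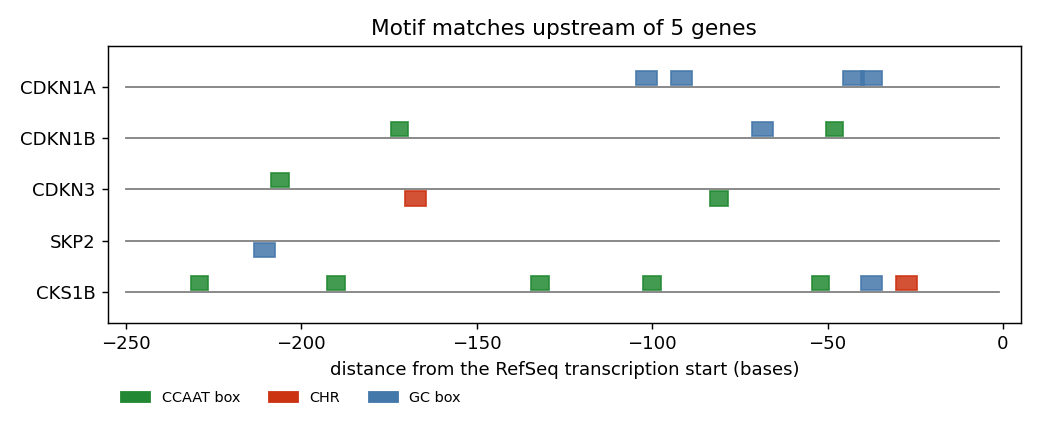
Positions of motif matches in the 250 bases before the RefSeq start of 5 genes (horizontal axis, bases from the start); boxes above a line are on the plus strand and boxes below it on the minus strand. CKS1B shows 5 CCAAT boxes and a CHR match near the start, and CDKN1A shows 4 GC boxes.

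The targets of the inhibitors moved mostly down. Of 13 cyclins and their kinases, 10 fell and none rose, where 22.2% and 23.2% of all genes did. Their median change was -1.05 against -0.05 over all genes. CDK4, CCND2 and CCNA1, named after their values were seen, did not pass (changes 0.03, -0.11 and -0.14). CCNE2, the cyclin E2 gene that partners CDK2 at the start of S phase, went from 11.08 ± 0.09 to 8.48 ± 0.11 (SD, n = 3), 6.08-fold lower. CCND1, the cyclin D1 gene, was 5.61-fold lower, CDK1, the mitotic kinase, 3.28-fold and CCNA2, the cyclin A2 gene, 2.52-fold. Of 8 genes that control CDK phosphorylation, 4 fell and none rose: the activating phosphatases CDC25A (5.83-fold) and CDC25C (2.00-fold), and the inhibitory kinases PKMYT1 (3.52-fold) and WEE1 (2.27-fold). In limma, 0 genes of either list rose at an unadjusted p under 0.05 as well. The CDK-activating kinase genes CDK7, CCNH and MNAT1 had changes of -0.03, 0.09 and -0.19 and, like CDC25B (-0.06), did not pass.

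Of 15 measured genes of inhibitor protein turnover beyond SKP2 and CKS1B, 8 fell and 2 rose, where 22.2% and 23.2% of all genes did. Their median change was -0.21. Without vehicle replicate 1, 5 fell. DTL, the receptor of another ubiquitin ligase that destroys p21 during S phase, had the largest fall, 9.15-fold, from 12.11 ± 0.06 to 8.91 ± 0.07 (SD, n = 3). CKS2, the paralog of CKS1B, was 2.00-fold lower and CDC20, an activator of the anaphase-promoting complex, 1.66-fold lower. RNF123, a ubiquitin ligase subunit that acts on p27 in the cytoplasm, was 1.54-fold higher.

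Of 18 measured regulators of CIP/KIP transcription, 6 fell and 4 rose, where 22.2% and 23.2% of all genes did. Their median change was -0.04. FOXO4, a forkhead factor of a family that activates CDKN1B, went from 8.48 ± 0.12 to 9.31 ± 0.12 (SD, n = 3), 1.78-fold higher. FOXO1 and FOXO3 of the same family, named after their values were seen, did not pass (changes 0.18 and -0.04). MYC, a repressor of CDKN1A, was 2.55-fold lower, KLF4, an activator of it, 2.06-fold lower and BRCA1 2.82-fold lower. Of 16 measured regulators of INK4 genes, 5 rose and 5 fell, where 23.2% and 22.2% of all genes did. The median of this list was -0.06. EZH2, the Polycomb methyltransferase that silences the CDKN2A locus, was 1.83-fold lower. ID1, a repressor of CDKN2A, ETS1, an activator of it, and RING1, a Polycomb subunit, were 1.78-fold, 1.77-fold and 1.51-fold higher.

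Downstream, 9 of 13 pocket proteins and E2F factors fell and 1 rose, where 22.2% and 23.2% of all genes did. Their median change was -0.56. E2F7 and E2F8, repressors late in the cell cycle, were 3.46-fold and 3.21-fold lower, E2F1, an activator of S phase genes, 3.03-fold and RBL1, the p107 gene, 2.33-fold. RBL2, the p130 gene of resting cells, was the member that rose (0.61, named after its value was seen). Of 18 measured p53 targets other than CDKN1A, 11 rose and 2 fell, where 23.2% and 22.2% of all genes did. Their median change was 0.26. With arrays centred on their medians 9 rose and 4 fell, and after renewed quantile normalization 10 rose and 4 fell. With the replicate number as a block or a threshold of 0.01, 9 rose. The same count rose in each fit that lacked 1 array, except that without vemurafenib replicate 3, where 11 rose. TP53INP1 rose 4.89-fold and TP53I3 1.98-fold, while AEN was 2.08-fold and PLK3 1.99-fold lower. The changes of this list ran from -1.06 to 2.29. That range holds the rise of CDKN1A, 1.42-fold, but also the changes of all other measured CDK inhibitor and p27 turnover genes. CKS1B probe set 7905826, at -1.39, lay below that range. MDM2, named after its value was seen, did not pass (change 0.05).

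**Figure D4:**
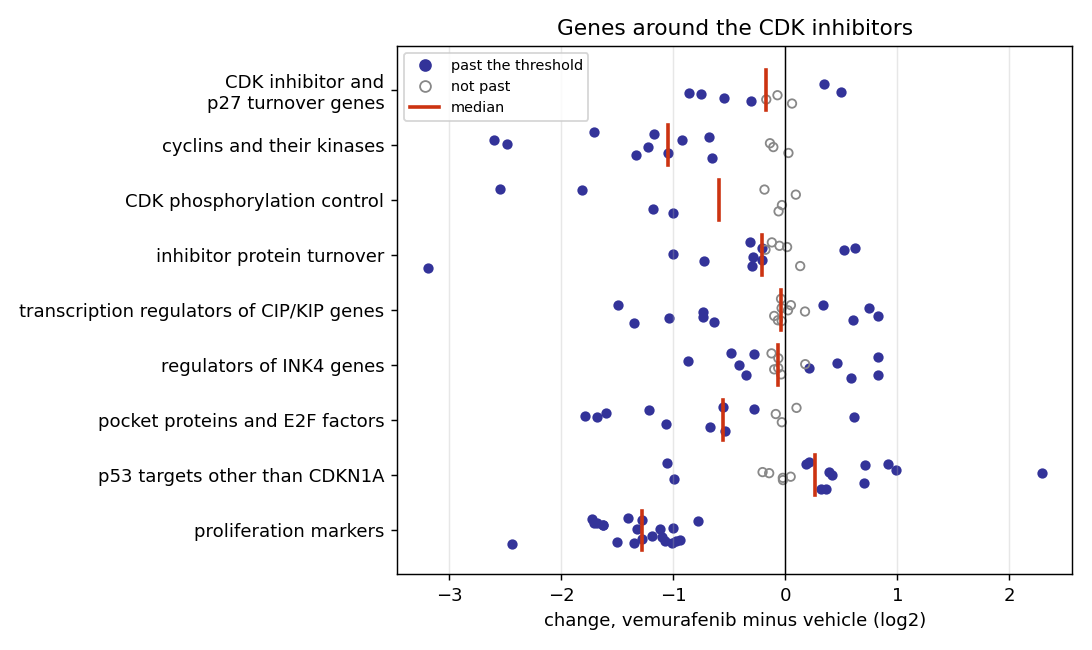
Change of every measured gene (horizontal axis, vemurafenib minus vehicle, log2) in the CDK inhibitor and p27 turnover set and in 8 lists around it; filled points passed the limma threshold, open points did not, and a bar marks each median. Cyclins and kinases, E2F factors and proliferation markers lie mostly below 0, with medians of -1.05, -0.56 and -1.28, and p53 targets mostly above it, with a median of 0.26.

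All 21 measured proliferation markers fell, where 22.2% of all genes did. Their changes ran from -2.44 (RRM2, the ribonucleotide reductase subunit) to -0.78, with a median of -1.28. Their log2 levels summed to between 237.5 and 239.9 on the vehicle arrays and to between 209.2 and 213.3 on the vemurafenib arrays. MCM6, MCM4 and MCM5, subunits of the replicative helicase, were 3.31-fold, 3.27-fold and 3.21-fold lower. These markers moved with the falls of SKP2, CKS1B, CDKN3 and CDKN2D, and their part in those falls was not tested.

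As a check of drug action, all 8 direct readouts of ERK signalling fell, where 22.2% of all genes did, with a median change of -3.78. Array medians lay between 7.69 and 7.73. Of 11 measured melanocyte lineage markers 5 rose and none fell, where 23.2% and 22.2% of all genes did. After median centring or without vemurafenib replicate 3, 1 fell. Of the 11, 5 lay among the dimmest 25% of genes: PMEL, MLANA, TYR, TYRP1 and SLC45A2, pigment genes named after their values were seen. Of 6 keratinocyte markers none passed in limma, where 45.5% of all genes did, and 1 had an unadjusted p under 0.05. Under other settings at most 1 of them rose or fell. Of 7 fibroblast markers DCN, LUM and PDGFRB rose, where 23.2% of all genes did. COL1A1 (0.01), COL1A2 (-0.15), COL3A1 (-0.04) and PDGFRA (-0.24) did not pass. In this list 1 marker fell after median centring, renewed quantile normalization, or without vehicle replicate 3 or vemurafenib replicate 3. The list's summed log2 level was 51.0 to 52.1 with vehicle and 54.0 to 55.5 with vemurafenib. DCN had a vehicle mean of 5.46, among the dimmest 25% of genes. Last, 4 of 8 leukocyte and endothelial markers fell, where 22.2% of all genes did, with sums of 55.2 to 55.9 and 53.1 to 53.7. Of those 8 markers 6 lay among the dimmest 25% of genes, and the count that fell was 2 without the dimmest 25% and 1 without the dimmest 50%. LYZ fell from 10.29 to 9.54 and KDR from 8.42 to 7.98, above the upper bound of the dimmest 25% (6.87). CD14 (6.76 to 6.44) and PECAM1 (5.74 to 5.42), the others that fell, lay below that bound. Among the dimmest 25% were also 3 of the 6 keratinocyte and 2 of the 7 fibroblast markers. The part of these markers in the changes of the CDK inhibitor genes was not tested.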

How the data were processed

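RNA of 6 cultures (3 vehicle, 3 vemurafenib) was measured on Affymetrix arrays. The deposited table gives a log2 level for each probe set. Per the submitters' processing notes the tools were RMA and Partek, with no version stated. RMA compresses large folds and cannot show a shift in the RNA content of cells. The genome build of the probes is not given in the sources used here. The table held 33297 probe sets, of which 19460 carried 1 symbol, 1754 several and 12083 none in the platform annotation. The brightest probe set per gene left 18417 genes, with no filter on dim genes. Groups and replicate numbers came from the sample titles.

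Group differences were tested with limma 3.58.1 under R 4.3.3 (lmFit, eBayes, group as the only term, 2-sided, Benjamini-Hochberg over all genes, threshold 0.05, 95% intervals). Differences between pairs of genes were tested with exact permutation over arrays (scipy 1.17.1). Named genes are all members, for each list the (at most) 4 past the threshold that changed most, any gene where a list had no more than 8 measured, and the 5 closest profiles to the members with the largest rise and fall. Others are marked as chosen after their values were seen. The members and lists were chosen with earlier results of these data known. The script was tested on simulated data for this comparison (18417 genes), where 74% of 50 genes changed by 0.5 and 6% of 50 changed by 0.25 were recovered. Far fewer genes were changed there than the 45.5% called in the data, which makes the adjustment stricter. These shares are therefore not the shares recovered in the real comparison. Promoter windows came from RefSeq (GRCh38.p14). The alternatives were a replicate block, median centring, renewed quantile normalization, filters that drop the 25% or 50% of genes with the lowest means, averaging over probe sets, every probe set on its own, an intensity trend with robust eBayes, a threshold of 0.01 and fits that each lacked 1 array. The number of arrays limits the precision.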

Additional observations from a re-analysis of the deposited data

How the results depend on the processing

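The calls of CDKN1A, CDKN1B, CDKN2D, CDKN3, SKP2 and CKS1B kept direction and side of the threshold under every alternative run. The count of 6 members became 7 without vemurafenib replicate 3, when CDKN2B passed (limma adjusted p 0.0471); over the 6 omissions of 1 array its change ran from -0.26 to -0.10, and its adjusted p over all its alternatives from 0.0471 to 0.456. CDKN2A and CDKN2B were removed by filters on dim genes. Same-numbered arrays did not all deviate together (correlations over genes 0.14, -0.18 and -0.25 for numbers 1, 2 and 3), while vehicle 2 correlated best with vemurafenib 3 (0.28) and vehicle 3 with vemurafenib 2 (0.22). This is a hint from the values and not from the labels, so no other pairing was fitted. With the replicate number as a block, 7606 genes passed in place of 8371, and the same 6 members were called; that block is not a test of the pairing by stock that the design text states. Counts over all genes ran from 5961 (without the dimmest 50%) to 9312 (centred). Of 420 counts for single lists and directions, 400 stayed within 1.5 times, and 20 moved further, most of them counts of 0 to 4 genes. Levels near background limit CDKN2B and CDKN2A-AS1.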
